A study of Mus musculus with 18 samples.

Results

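The long RNA tables of this study count reads on 2 kinds of feature: RefSeq transcripts and stretches of the mouse genome between or inside genes, each named by its mm9 coordinates. The regions described here are the genomic stretches whose end minus start was 50 kb or more, outside the mitochondrial genome. There were 6146 of them among 66011 genomic regions and 85202 features in all, of which 5972 stood in the table of total RNA, 4641 in that of poly(A) RNA and 4467 in both. They were chosen by length alone, not by any measured value.

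The cells were HPRT-deficient embryonic stem (ES) cells of mouse strain C57BL/6 at passage 19-22, in both treatment groups. HPRT is an enzyme of purine salvage. All cells had passed through feeder-coated and then gelatin-coated plates, and were exposed to 2.5 µM cisplatin or to its vehicle, DMSO, for a time that the labels do not give. Of 18 libraries in the series, 12 were used: 3 controls (codes 8.4.16, 8.5.16 and 8.6.16) and 3 cisplatin libraries (8.3.3, 8.4.3 and 8.5.3) from total RNA that had been depleted of ribosomal RNA, fragmented and ligated to adapters, and the same 6 codes from a kit that selects poly(A) RNA. The labels do not say whether the codes of a group are separate cultures, so the p-values below measure only sample-to-sample spread that may be technical.

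Most of a mammalian gene is intron, and a few introns, often the first, are far longer than the rest. RNA polymerase II reads the whole intron before the splicing machinery, which recognises GT at its start and AG at its end, removes it. Reads on an intron therefore come mainly from unspliced or nascent RNA, while reads on a gap between genes can come from unannotated transcripts, from read-through past a gene's end, or from any gene copy lying inside. Cisplatin forms platinum crosslinks on DNA, and such lesions stop an elongating polymerase.

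By the GENCODE vM1 annotation of the same assembly, 1579 of the 6146 regions (25.7%) were exactly 1 intron of a gene, 246 (4.0%) lay inside a gene in another way, 3626 (59.0%) lay partly over an annotated gene and 695 (11.3%) touched none. The introns belonged to 1150 host genes. Each intron was numbered by the annotated transcript of its host gene that gave it the lowest number. Intron 1 of such a transcript accounted for 757 of them (47.9%), against 22.9% of the 50345 introns under 50 kb. Intron 2 accounted for 328 and later introns for 494. Because transcripts can begin inside a gene, a low number need not mean a place near the gene's start. Intron 1 of Celf2 starts 196 kb from it. The median length was 110 kb over all regions and 81.5 kb over introns, the longest region spanned 13504 kb of chromosome Y, and the regions summed to 1608 Mb. A complete GENCODE gene, such as a pseudogene or a small RNA gene, lay inside 3197 of them (52.0%), so a region's count is not always that of intron or gap RNA. Nested pseudogenes were present in 22.5% and nested small RNA genes in 25.8%. A region called a gap below ran between or beside genes, and it could also lie partly over an annotated gene.

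Regions were classed as introns because their ends match annotated introns, so their end bases describe the annotation rather than the reads. Of 1579 introns, 1567 (99.2%) began with GT and ended with AG on the host gene's strand, against 99.0% of shorter introns. The ends of 5 introns that results below turn on are printed from the mm9 assembly, 5′ to 3′ on the host strand, with the splice-site bases in capitals. Tox3 encodes an HMG-box protein, Cyyr1 a small membrane protein, Klf12 and Trps1 zinc finger repressors and Ctbp2 a transcriptional corepressor.
Tox3 intron 1, first 28 bases, chr8:92871734-92871761, minus strand: GTgaccgggccgggggcgggggccacct
Tox3 intron 1, last 28 bases, chr8:92798594-92798621, minus strand: aacataaatcaatgtttctttcttccAG
Cyyr1 intron 2, first 28 bases, chr16:85545038-85545065, minus strand: GTgagtaaagggcaaacctcacagtgcg
Cyyr1 intron 2, last 28 bases, chr16:85465937-85465964, minus strand: ggcagattctctttgttttccttctcAG
Klf12 intron 2, first 28 bases, chr14:100508962-100508989, minus strand: GTaagcagagacctccgcagaggccccc
Klf12 intron 2, last 28 bases, chr14:100422388-100422415, minus strand: acaaatctgttccattttctccttgcAG
Trps1 intron 4, first 28 bases, chr15:50653623-50653650, minus strand: GTaggaaggtttccttatttaaaataat
Trps1 intron 4, last 28 bases, chr15:50496356-50496383, minus strand: ttctttttttttctccctcccatttcAG
Ctbp2 intron 2, first 28 bases, chr7:140273412-140273439, minus strand: GTgagttactgtaaaatatctccaggta
Ctbp2 intron 2, last 28 bases, chr7:140217556-140217583, minus strand: gttaaggcttcttttctccttgtttcAG

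A second set of sequences bears on the largest increases. Some of the regions hold a copy of part of a transfer RNA (tRNA), the adapter molecule of translation. Under stress, tRNAs can be cut in the anticodon loop into shorter fragments. The small RNA table of the same total RNA libraries listed 1607 tRNA fragments of 28 to 33 bases, and 65 of the 6146 regions (1.06%) held an exact genomic copy of at least 1 of them. The copies were looked for after the values of the regions had been seen. A 38-base stretch of the 5′ part of glutamine tRNA, in capitals below, had 11 copies in the genome, in 10 of the tables' regions. The 20 bases after it, in lower case, are shown for 4 regions that rose in total RNA. The stretch was defined as the bases shared by these 4 regions.
Cntn5 intron 2, chr9:10566493-10566550, minus strand: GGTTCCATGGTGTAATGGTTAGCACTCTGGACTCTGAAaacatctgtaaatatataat
gap beside Pabpc4l, chr3:45497365-45497422, minus strand: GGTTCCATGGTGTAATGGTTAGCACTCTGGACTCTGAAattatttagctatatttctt
region touching Lpcat4, chr2:112049771-112049828, plus strand: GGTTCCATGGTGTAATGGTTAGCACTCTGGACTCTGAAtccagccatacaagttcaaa
region touching Rab11a, chr9:64585853-64585910, plus strand: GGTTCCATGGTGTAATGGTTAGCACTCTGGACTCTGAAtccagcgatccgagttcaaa
glutamine tRNA fragment of the small RNA table, 32 bases: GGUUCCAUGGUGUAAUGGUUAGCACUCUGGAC

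The 12 libraries held between 22262097 and 58535021 counts in total RNA and between 13074665 and 20269697 in poly(A) RNA. Values below are CPM, a feature's reads per 1e6 reads of the library, after TMM scaling, a correction for unequal library composition. The TMM factors ran from 0.667 (cisplatin 8.5.3) to 1.29 in total RNA and from 0.959 to 1.03 in poly(A) RNA. All 12 ES cell markers examined passed the count filter in both assays, with a summed level of 3384 to 3620 CPM in control and 2866 to 2985 CPM in cisplatin poly(A) libraries, where 8 of the 12 fell. Of 18 markers of feeder fibroblasts, 15 passed it in poly(A) RNA (all but Lum, Dcn and Twist2), summing to 289 to 315 CPM in control and 244 to 322 CPM in cisplatin libraries, and 3 passed in total RNA. Of these, 1 rose and 1 fell in poly(A) RNA, and their part in the results below was not tested. In bulk RNA, fewer cells of a type and less RNA per cell cannot be told apart.

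Per kb, the regions were sparsely covered. The median control level over all regions was 0.00159 CPM per kb in total RNA and 0.0186 CPM per kb in poly(A) RNA. In total RNA the 10 regions with the most counts carried 64.5% of the regions' CPM and the top 100 carried 96.5%, against 14.7% and 41.2% in poly(A) RNA. The regions together took 17.4 ± 0.59% of the counts on all genomic regions in cisplatin total RNA and 20.3 ± 4.78% in control (mean ± SD, n = 3, two-sided exact permutation p = 0.4). The control spread came mainly from 8.4.16, at 25.6%, with 16.3% in 8.5.16 and 18.9% in 8.6.16. Single dense regions also stood highest in 8.4.16. The region beside Zmynd11 (chr13:9764561-9875858) held 45817, 20803 and 19383 CPM in 8.4.16, 8.5.16 and 8.6.16. That with AY036118 (chr17:39981191-40343962) held 51707, 18388.5 and 16360 CPM. Their part in the share was not tested. The share in poly(A) RNA was 53.3, 53.6 and 53.8% in cisplatin and 54.2, 54.4 and 54.8% in control, so the groups did not overlap, by a difference of -0.893 percentage points. The two-sided exact permutation p was 0.1, which is the smallest p that 3 against 3 can give. The direction depended on the denominator: as a share of the whole poly(A) table, RefSeq transcripts included, the regions took 11.0, 11.1 and 11.1% in cisplatin and 11.1, 10.9 and 10.9% in control, with overlapping groups and a difference of 0.139 percentage points (exact permutation p = 0.2).

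In total RNA, 2983 of the regions passed the filter on low counts and were tested. Cisplatin raised 19 of them and lowered 13 at an adjusted p under 0.05 (edgeR quasi-likelihood test, Benjamini-Hochberg over all 22612 features tested). That is 0.637% and 0.436% of the regions, against 0.809% higher and 0.712% lower over all features, and the median log2 change was 0.0048 against 0.0029. Regions under 50 kb gave 34 higher and 48 lower of 7346. The median absolute log2 change of the called regions was 1.51. All 32 are named below, some of them by the rule given with the methods and the others after their values were seen.

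Regions holding a tRNA fragment copy made up 9 of the 19 that rose and 0 of the 13 that fell, and 57 of the 2983 tested (1.91%). Their median log2 change was 0.42, with 46 of 57 above 0, against -0.00095 in the 2926 regions without a copy. Of 53 regions with a copy tested in poly(A) RNA, 1 rose and 4 fell, and the medians were -0.082 with a copy and -0.029 without. The labels do not give how reads that match several places were counted, and the part of tRNA-derived reads in these increases was not tested.

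The largest increase in total RNA was in intron 2 of Cntn5, which encodes a contactin, a neuronal adhesion molecule (chr9:10419160-10640681). It stood at 7.05, 10.2 and 16.8 CPM in cisplatin 8.3.3, 8.4.3 and 8.5.3 and at 2.17, 1.43 and 0.353 CPM in control 8.4.16, 8.5.16 and 8.6.16. All 3 cisplatin libraries lay above all 3 controls, and the log2 change was 3.17 ± 0.38 (SE; edgeR adjusted p = 2.1e-04). The region touching Lpcat4, a phospholipid acyltransferase gene (chr2:111997165-112079997), held 7.05, 11.2 and 17.3 CPM with cisplatin and 2.12, 1.98 and 0.289 CPM in control (log2 change 3.06, edgeR adjusted p = 3.1e-04). The region touching Rab11a, which encodes a GTPase of recycling endosomes (chr9:64585564-64658817), held 7.79, 12.7 and 18.1 CPM with cisplatin and 3.20, 3.11 and 0.706 CPM in control (log2 change 2.48, edgeR adjusted p = 8.8e-04). The 1008 kb gap beside Pabpc4l, a gene of a poly(A)-binding protein (chr3:45238502-46246118), held 7.42, 10.7 and 17.8 CPM with cisplatin and 4.18, 2.49 and 1.19 CPM in control (log2 change 2.24, edgeR adjusted p = 0.0010). These 4 regions on 3 chromosomes share the glutamine tRNA stretch printed above, and their levels ran from 7.05 to 7.79 CPM in cisplatin 8.3.3, from 10.2 to 12.7 CPM in 8.4.3 and from 16.8 to 18.1 CPM in 8.5.3. In control they ran from 2.12 to 4.18 CPM in 8.4.16, from 1.43 to 3.11 CPM in 8.5.16 and from 0.289 to 1.19 CPM in 8.6.16.

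The 10 regions of the tables with a copy of that stretch, of which 6 are 50 kb or longer, all had a log2 change above 0, from 0.56 to 3.17, and 5 were called higher, 4 of them among the 6 long ones. The stretch was defined as the bases shared by these 4 called regions, so their presence among the 6 was fixed in advance. The regions hold the same bases, and whether the same reads were counted in several of them is not stated. Their counts are therefore uncertain as those of single regions, and their increases cannot be taken as separate observations. Over all 2983 long regions tested, 0.637% were called higher. In the small RNA table of these libraries, the 32-base glutamine tRNA fragment had a count of 25, 98 and 63 with cisplatin and 1, 1 and 1 in control. The 6 fragments that match the stretch summed to 44, 140 and 95 with cisplatin and 6, 7 and 6 in control. No tRNA fragment of this length has a count under 1 in any library of that table, and 1042 to 1107 of the 1607 stand at 1 in each control, so the control values lie at the lowest value listed and their true level is not known. The Cntn5 intron was at 0.581, 0.319 and 0.289 CPM with cisplatin and 0.708, 0.662 and 0.555 CPM in control poly(A) RNA (log2 change -0.66, edgeR adjusted p = 0.28).

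The other 5 called increases with a tRNA copy matched other tRNAs. The gap from Rybp, a Polycomb complex gene, to Shq1 (chr6:100237353-100523075; lysine TTT) held 11.8, 18.7 and 26.9 CPM with cisplatin and 4.78, 8.74 and 1.41 CPM in control (log2 change 1.93, edgeR adjusted p = 0.012). The gap from Sec23ip to Ppapdc1a (chr7:135928350-136400607; lysine CTT) held 1.27, 2.22 and 2.28 CPM with cisplatin and 0.488, 0.758 and 0.225 CPM in control (log2 change 1.92, edgeR adjusted p = 0.0032). The remaining 3 were the region between Rgs13 and Rgs1 (chr1:146024503-146091798; lysine CTT; log2 change 1.37), the gap from Nfib to Zdhhc21 (chr4:82151213-82444641; histidine GTG; 1.22) and the region beside Vmn2r117 (chr17:23616565-23693733; lysine and proline; 1.08). In the gap from Nfib to Zdhhc21, cisplatin 8.3.3 at 3.99 CPM lay within the control range of 2.98 to 4.18 CPM, while 8.4.3 and 8.5.3 stood at 9.61 and 12.4 CPM. Cisplatin 8.5.3, the library with the lowest TMM factor, was the highest of its group in 14 of the 19 regions that rose, and control 8.6.16 the lowest of its group in 15, and the part of these libraries was not tested.

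Of the 10 regions that rose without a tRNA copy, 6 were introns. Tox3 intron 1 (chr8:92798594-92871761, 73.2 kb, starting 0.39 kb from the gene's start) held 3.43, 2.79 and 4.66 CPM with cisplatin and 1.52, 1.38 and 0.898 CPM in control. The groups did not overlap, the log2 change was 1.52 ± 0.24 (SE; edgeR adjusted p = 0.0013), and the level rose from 0.0173 to 0.0495 CPM per kb. The Tox3 mRNA stood at 0.872, 1.01 and 0.650 CPM with cisplatin and 0.865, 0.865 and 0.740 CPM in control poly(A) RNA, a log2 change of 0.06 with an edgeR adjusted p of 0.92.

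Cyyr1 intron 2 (chr16:85465937-85545065) was covered thinly, by 1 to 29 reads a library, with 0.510, 0.381 and 0.503 CPM with cisplatin and 0.0543, 0.108 and 0.0321 CPM in control total RNA (log2 change 2.67, edgeR adjusted p = 0.0054). It also rose in poly(A) RNA, and the Cyyr1 mRNA rose from 1.49, 1.63 and 1.48 CPM in control to 3.72, 4.89 and 6.07 CPM (log2 change 1.65, edgeR adjusted p = 1.8e-06). Intron 1 of Nr3c1, the glucocorticoid receptor gene (chr18:39588435-39645651), held 1.39, 1.33 and 1.03 CPM with cisplatin and 0.434, 0.785 and 0.481 CPM in control (log2 change 1.09, edgeR adjusted p = 0.041). Its mRNA rose in poly(A) RNA by 0.85 and in total RNA by 1.19 on the log2 scale (edgeR adjusted p = 2.2e-06 and 0.025). The intron and the mRNA of both genes were higher in every cisplatin library than in any control.

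The other 3 introns were intron 1 of Kcnq3, a potassium channel gene (log2 change 2.64), intron 1 of Ano3, an anoctamin (2.31), and intron 1 of Ptprt, a receptor tyrosine phosphatase (1.82). All 3 stood under 0.7 CPM in every library, and Kcnq3 had no read in control 8.6.16. The Ano3 mRNA rose by 1.50 on the log2 scale in poly(A) RNA (edgeR adjusted p = 1.9e-04). Inside Plekhg1 a region of 69.9 kb changed by 2.21 and the mRNA by 0.87 on the log2 scale. The last 3 increases were a region inside Cacnb4 (1.08), a region beside 9230114K14Rik (chr5:52589224-52755042, 1.63) and the gap from P2ry1, an ADP receptor gene, to Rap2b (chr3:60812902-61168428, 1.51).

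Introns were 7 of the 13 regions that fell in total RNA, and the mRNA of all 7 host genes was lower in poly(A) RNA. The host mRNA was lower for 401 of all 558 introns with a tested host mRNA, so the 7 of 7 is to be read beside that. None of the 13 kept its call with library totals and no TMM factor, and 3 kept it with a replicate block. Klf12 intron 2 (chr14:100422388-100508989) held 0.246, 0.150 and 0.132 CPM with cisplatin and 0.543, 0.866 and 0.866 CPM in control, from 5 to 32 reads a library. The groups did not overlap, and the log2 change was -2.12 ± 0.34 (SE; edgeR adjusted p = 0.0016). The Klf12 mRNA stood at 4.19, 3.51 and 2.67 CPM against 13.0, 13.4 and 9.99 CPM, a log2 change of -1.79 (edgeR adjusted p = 3.7e-09). Intron 17 of Exoc4, an exocyst subunit gene (chr6:33871538-33921913), had the most negative change, -2.42, from 2 to 14 reads a library (edgeR adjusted p = 0.0093), with an mRNA change of -0.66.

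Trps1 intron 4 (chr15:50496356-50653650) held 2.32, 1.96 and 1.93 CPM with cisplatin and 3.15, 4.27 and 3.34 CPM in control (log2 change -0.80, edgeR adjusted p = 0.027). The 897 kb gap that runs from Trps1 to the translation initiation factor gene Eif3h (chr15:50721588-51618108) held 3.39, 3.07 and 2.67 CPM with cisplatin and 5.43, 7.20 and 7.54 CPM in control (log2 change -1.15 ± 0.18, edgeR adjusted p = 0.0016). The Trps1 mRNA was at 14.8, 12.5 and 12.9 CPM against 30.0, 29.8 and 27.9 CPM. Every one of these 3 features was lower in all cisplatin libraries than in any control.

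Ctbp2 intron 2 (chr7:140217556-140273439) held 1.23, 1.16 and 1.40 CPM with cisplatin and 2.44, 2.27 and 1.93 CPM in control total RNA (log2 change -0.81, edgeR adjusted p = 0.042). Its mRNA fell in poly(A) RNA by 1.03 and in total RNA by 0.86 on the log2 scale (edgeR adjusted p = 5.8e-12 and 0.015). The remaining introns were intron 14 of Snd1, a nuclease-domain RNA-binding protein (log2 change -1.76, mRNA -0.63), intron 3 of Bnc2, a zinc finger protein (-1.40, mRNA -1.55), and intron 2 of Phf21a, a histone H3 reader (-1.27, mRNA -0.57). Of the 6 other regions that fell, the gap from Nxnl2 to S1pr3 holding the histone gene Hist1h2al (chr13:51270557-51503986) was the most abundant, at 10.1, 10.4 and 10.5 CPM with cisplatin and 16.6, 26.2 and 28.4 CPM in control (log2 change -1.20, edgeR adjusted p = 0.0051). This gap stood at 14.3 to 16.3 CPM with cisplatin and 16.9 to 18.1 CPM in control poly(A) RNA (log2 change -0.17, edgeR adjusted p = 0.21). The others, besides the gap beside Trps1, were a region between Kcnk10 and Spata7 (-1.30), a region inside Immp2l (-0.84), the gap from Zfp202 to Scn3b (-0.80) and the gap beside Pmp2 (-0.72).

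**Figure D1:**
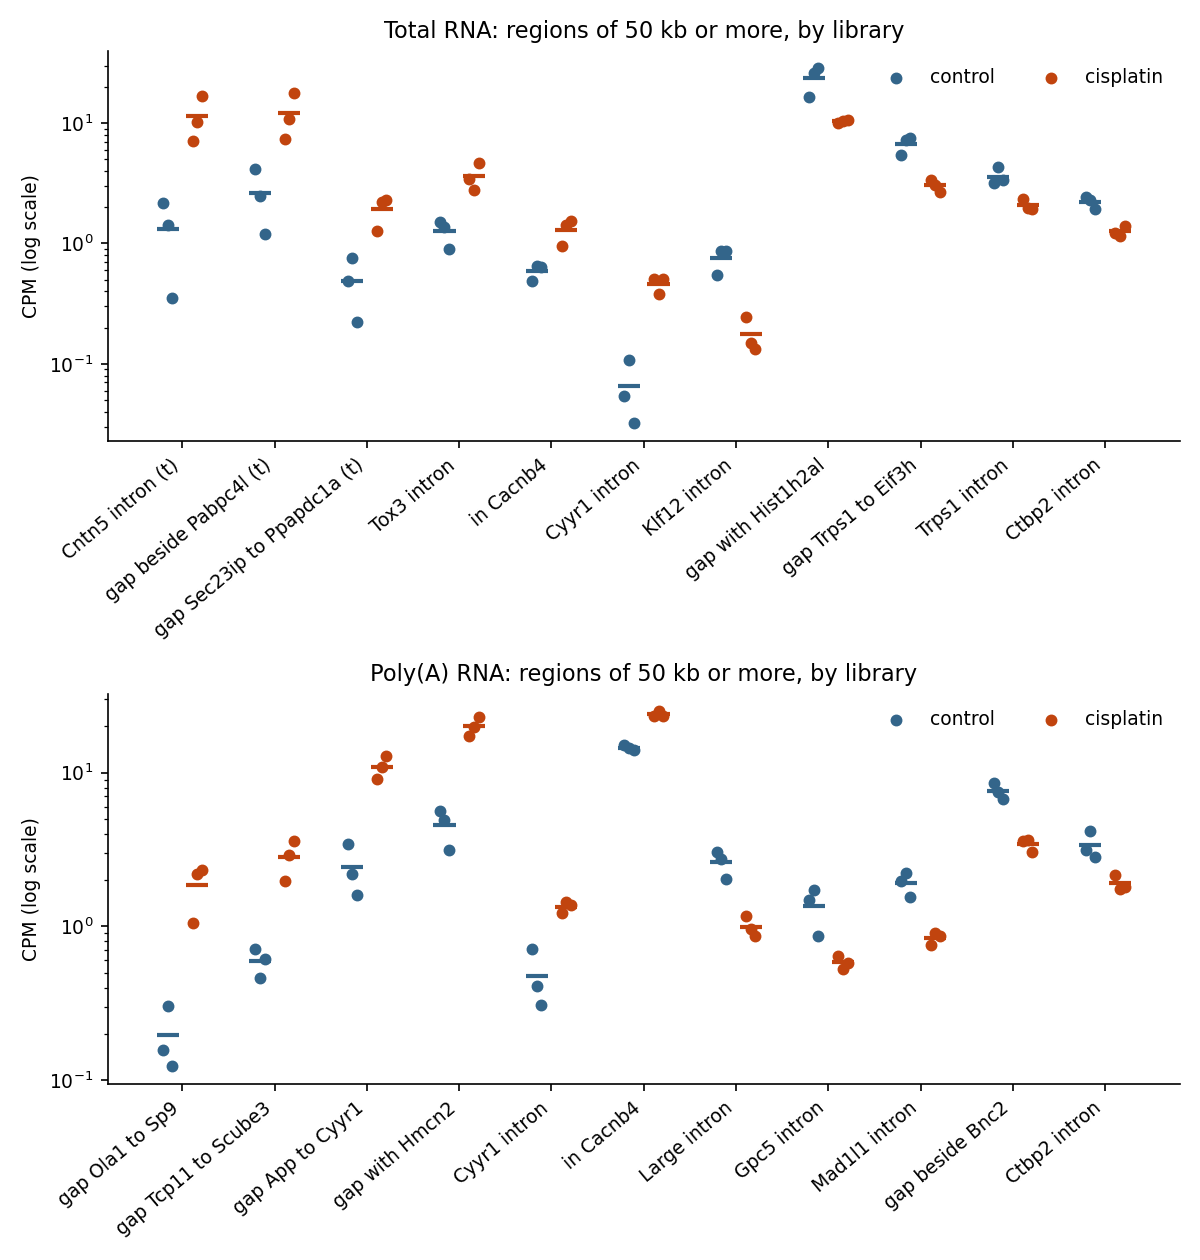
CPM (log axis) of regions of 50 kb or more in each library of total RNA (top) and poly(A) RNA (bottom). Each point is 1 library and each bar a group mean of 3; "(t)" marks regions that hold a tRNA fragment copy. In every region drawn, the cisplatin points do not overlap the control points, as in the Tox3 intron at 2.79 to 4.66 against 0.898 to 1.52 CPM.

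In poly(A) RNA, 4032 regions were tested, and cisplatin raised 211 (5.23%) and lowered 385 (9.55%), against 10.6% higher and 10.7% lower over all 43806 features (edgeR quasi-likelihood test, adjusted p under 0.05). The median log2 change was -0.030 over the regions and 0.0079 over all features. The median absolute log2 change was 0.49 among called regions. The split depended on the scaling: with library totals and no TMM factor, 393 regions rose and 206 fell. Regions of 500 kb or more gave 11 higher and 91 lower of 665, with a median of -0.062, and those of 50 to 100 kb 108 and 138 of 1537, with a median of -0.018. Regions with a nested pseudogene gave 27 higher and 158 lower of 1215, and regions with no nested gene 94 and 111 of 1479. The median count a library was 200 and 33.2 in these 2 groups. It was 283.5 in regions of 500 kb or more and 44.5 in those of 50 to 100 kb, so the power to call a change differed. The GC content was 45.9% (median) in regions that rose, 41.2% in those that fell and 42.3% over all tested. Across the 4032 regions, which share the same 6 libraries, GC content and log2 change had a Pearson r of 0.28.

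The largest named increases in poly(A) RNA were in regions that lay partly over an annotated gene. The gap from Ola1, an ATPase gene, to Sp9, a zinc finger factor gene (chr2:73052505-73109982), held 1.05, 2.18 and 2.31 CPM with cisplatin and 0.157, 0.305 and 0.123 CPM in control (log2 change 3.11 ± 0.42, edgeR adjusted p = 4.5e-06). The region around Hmcn2, a matrix protein gene, between Ass1 and Ncs1 (chr2:31150992-31325789) held 17.4, 19.9 and 23.1 CPM with cisplatin and 5.66, 4.89 and 3.14 CPM in control (log2 change 2.15, edgeR adjusted p = 9.1e-11). The gap between App, the amyloid precursor gene, and Cyyr1 (chr16:85173953-85456489) held 9.07, 11.0 and 12.8 CPM with cisplatin and 3.46, 2.19 and 1.60 CPM in control (log2 change 2.21, edgeR adjusted p = 2.8e-09). None of the 3 had overlapping groups, and the Hmcn2 region rose from 0.0261 to 0.115 CPM per kb.

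That last gap lies 3′ of Cyyr1, whose intron 2 held 1.22, 1.44 and 1.37 CPM with cisplatin and 0.708, 0.407 and 0.308 CPM in control poly(A) RNA (log2 change 1.55, edgeR adjusted p = 0.0012). The gap from Tcp11 to Scube3 (chr17:28217585-28279470) changed by 2.26 and the region touching Stx18 (chr5:38215825-38430473) by 2.01 on the log2 scale. The other 3 named increases were a region beside 2700029M09Rik (1.68), the gap from Kcnj12 to Tnfrsf13b (1.62) and the region beside Krt42 (1.61). These 9 increases hold 1 intron, that of Cyyr1.

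The named decreases in poly(A) RNA were mostly introns, 6 of 10. Intron 6 of Large, a gene of dystroglycan glycosylation (chr8:75436060-75572192), held 1.16, 0.957 and 0.866 CPM with cisplatin and 3.07, 2.75 and 2.03 CPM in control (log2 change -1.37 ± 0.25, edgeR adjusted p = 1.6e-04). Intron 6 of Mad1l1, a spindle checkpoint gene (chr5:140485229-140541767), held 0.756, 0.904 and 0.866 CPM against 1.97, 2.24 and 1.54 CPM (log2 change -1.19, edgeR adjusted p = 0.0015). The Mad1l1 mRNA stood at 19.5, 21.3 and 17.0 CPM against 39.1, 45.0 and 44.3 CPM (log2 change -1.15). Intron and mRNA of Mad1l1 were both lower in all cisplatin libraries than in any control.

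The other introns were intron 10 of BC052040 (log2 change -1.25, mRNA -0.58), intron 6 of Gpc5, a glypican gene (-1.23), intron 7 of Vti1a, a SNARE gene (-1.08, mRNA -0.43 with an edgeR adjusted p of 0.051), and intron 15 of Spata5, an AAA ATPase gene (-1.07, mRNA -0.59). The region beside Bnc2 (chr4:83510575-83918445) held 3.60, 3.67 and 3.03 CPM with cisplatin and 8.57, 7.43 and 6.72 CPM in control (log2 change -1.12, edgeR adjusted p = 4.7e-06). It touches the 3′ end of Bnc2, whose mRNA changed by -1.55 on the log2 scale. The gaps beside Xylt1 (-1.24), Enox1 (-1.20) and Aff1 (-1.10) completed the list.

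Regions that abut a gene could be set beside that gene's mRNA in poly(A) RNA. At a gene's 3′ end, 927 pairs had a Pearson r of 0.24 between the log2 changes of region and mRNA, and in 92 pairs both were called, 67 of them with the same sign. At the 5′ end, 1344 pairs had an r of 0.22, with 95 called in both and 67 of the same sign. Region and mRNA come from the same 6 libraries, so these coefficients are descriptions.

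**Figure D2:**
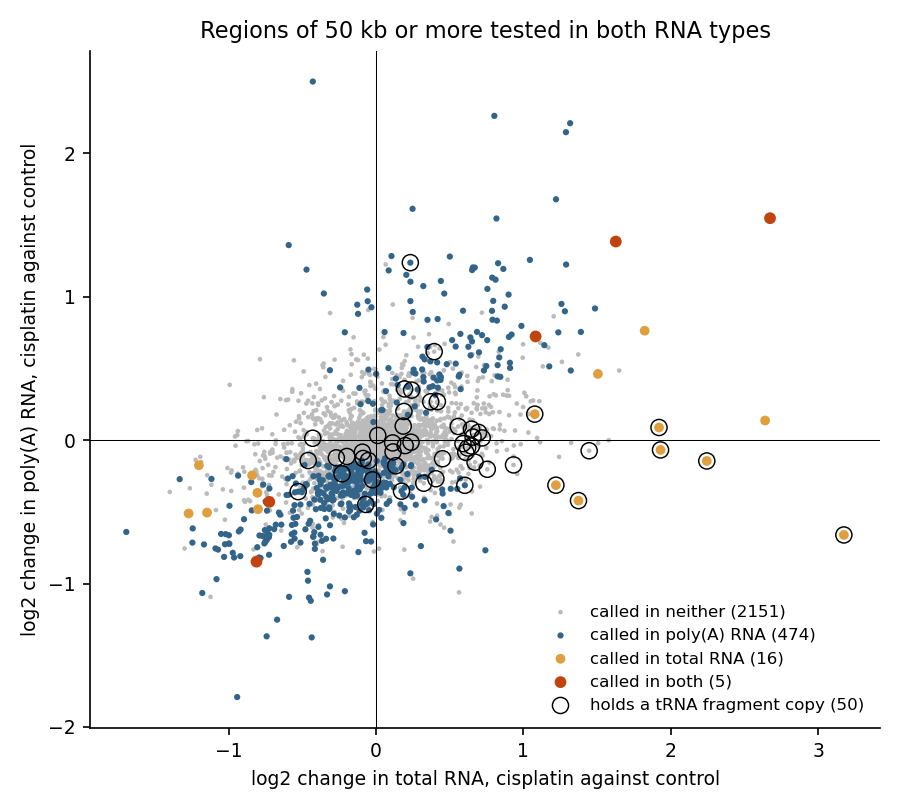
Log2 change after cisplatin in total RNA (horizontal) and poly(A) RNA (vertical) of the 2646 regions tested in both; each point is 1 region, coloured by the assay in which it was called, and rings mark regions with a tRNA fragment copy. The 5 regions called in both lie in the lower left and upper right, and ringed regions spread to the right, with the Cntn5 intron at 3.17 and -0.66.

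Across the 2646 regions tested in both assays, the log2 changes had a Pearson r of 0.45 and a Spearman coefficient of 0.42, as a description over regions that share the same 12 libraries. Of 21 regions called in total RNA and tested in poly(A) RNA, 16 had the same sign there, and of 480 called in poly(A) RNA and tested in total RNA, 388 did. Called in both were 5: the Ctbp2 intron and the gap beside Pmp2, which fell, and the region inside Cacnb4, the region beside 9230114K14Rik and the Cyyr1 intron, which rose. They are named because there are few, after their values were seen. The region inside Cacnb4, a calcium channel subunit gene (chr2:52414088-52531246), held 0.949, 1.41 and 1.54 CPM against 0.488, 0.649 and 0.642 CPM in total RNA, and 23.4, 25.1 and 23.4 CPM against 15.1, 14.6 and 14.0 CPM in poly(A) RNA. The region beside 9230114K14Rik held 17.8, 20.4 and 21.7 CPM with cisplatin and 8.26, 7.69 and 6.97 CPM in control poly(A) RNA (log2 change 1.39, edgeR adjusted p = 9.1e-10). The Ctbp2 intron held 2.15, 1.75 and 1.81 CPM against 3.15, 4.17 and 2.84 CPM in poly(A) RNA (log2 change -0.85, edgeR adjusted p = 0.0036). In each of the 3 the groups did not overlap in either assay.

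The difference between the 2 assays' effects was tested as an interaction over 4180 regions. It was higher in total RNA for 1 region and lower for 1, and these were also the only calls among all 42264 features, 0.00237% in each direction (edgeR quasi-likelihood test, adjusted p under 0.05). At an unadjusted p under 0.05 there were 274 regions (6.56%), against 6.20% of all features. The region with the higher effect was the gap beside Pabpc4l, which holds the glutamine tRNA stretch (difference of log2 changes 2.42, edgeR adjusted p = 0.0013), at 16.5 to 18.2 CPM with cisplatin and 18.9 to 20.5 CPM in control poly(A) RNA. With the sample code as a replicate block, 6 regions had a higher and 2 a lower effect in total RNA.

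Introns farther from the start of their gene had lower median changes in both assays. In total RNA, introns of 50 kb or more gave 7 higher and 7 lower of 651. By intron number, intron 1 gave 5 higher and 0 lower of 327, and intron 2 gave 2 and 3 of 145. Later introns gave 0 and 4 of 179. The median log2 changes were -0.031, -0.082 and -0.30 in that order. Over all features tested in total RNA, 0.809% rose and 0.712% fell. The 2 increases in intron 2 were those of Cyyr1 and of Cntn5, which holds a tRNA fragment copy. The 4 that fell among later introns were those of Exoc4, Snd1, Bnc2 and Trps1. By distance from the host gene's start to the intron's first base, the medians were -0.031 under 10 kb (334 introns), -0.16 from 10 to 100 kb (161) and -0.28 from 100 kb on (156). The medians at those distances in poly(A) RNA were -0.048 (272), -0.13 (138) and -0.14 (186), and 11, 2 and 4 introns rose while 15, 13 and 28 fell. By intron number in poly(A) RNA, intron 1 gave 9 higher and 17 lower of 273, and intron 2 gave 5 and 7 of 127. Later introns gave 3 and 32 of 196. The medians were -0.047, -0.075 and -0.18 in that order. Over all features tested in poly(A) RNA, 10.6% rose and 10.7% fell. Introns under 50 kb had medians of -0.067 in total RNA (5093 introns) and 0.0056 in poly(A) RNA (17164). No test of the trend with distance was run. An intron that begins far from the start lies in a long gene, and the part of gene length was not tested.

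**Figure D3:**
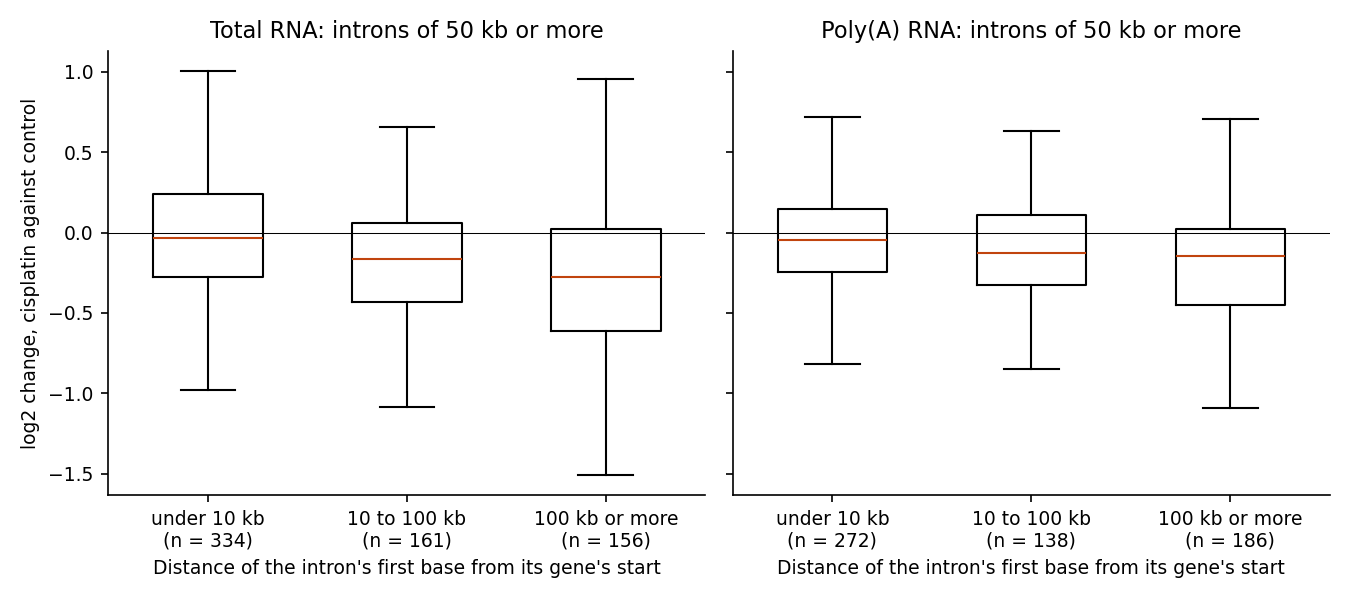
Log2 change after cisplatin of introns of 50 kb or more, by the distance of the intron's first base from its gene's start, in total RNA (left) and poly(A) RNA (right). Boxes show the median and quartiles and whiskers the range without far values; the medians run from -0.031 to -0.28 in total RNA and from -0.048 to -0.14 in poly(A) RNA.

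Most mRNAs of the genes that host these introns were lower after cisplatin. In poly(A) RNA, 830 host mRNAs were tested, of which 43 rose (5.18%) and 442 fell (53.3%), against 18.0% higher and 18.3% lower over all 12798 protein-coding mRNAs (edgeR quasi-likelihood test, adjusted p under 0.05). The median log2 change was -0.39 for hosts and 0.020 for all. Summed over the 830 hosts, the mRNAs stood at 15348, 15679 and 14925 CPM in cisplatin 8.3.3, 8.4.3 and 8.5.3 and at 21470, 22004 and 20849 CPM in control 8.4.16, 8.5.16 and 8.6.16, so every cisplatin library lay below every control. This was 2.76, 2.81 and 2.65% of the protein-coding CPM with cisplatin and 3.64, 3.70 and 3.44% in control. With 1, 2 and 3 or more introns of 50 kb or more, 47.8, 64.8 and 82.0% of the host mRNAs fell.

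In total RNA, 445 host mRNAs were tested, and 2 rose and 16 fell, with a median of -0.31. Over all 8761 protein-coding mRNAs tested there, 0.982% rose and 0.89% fell, with a median of 0.030. With library totals and no TMM factor, 0 hosts rose and 0 fell in total RNA, the median over all mRNAs moved to 0.15 and that of hosts to -0.21. The same scaling gave 57 hosts higher and 384 lower in poly(A) RNA.

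Hosts are long genes, and the share of mRNAs that fell rose with gene length among all genes. It was 5.98% of genes under 10 kb, 12.8% of those of 10 to 50 kb, 30.7% at 50 to 100 kb, 45.0% at 100 to 200 kb, 60.3% at 200 to 400 kb and 60.2% at 400 kb or more in poly(A) RNA. At the same lengths, from 50 to 100 kb upwards, 32.5, 48.5, 61.9 and 62.4% of hosts fell, and 30.6, 43.3, 56.8 and 42.9% of genes with no such intron, the last over 14 genes. The share that rose went from 21.3% of genes under 10 kb to 0.813% of those of 400 kb or more. The difference between hosts and other genes of the same length was not tested.

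**Figure D4:**
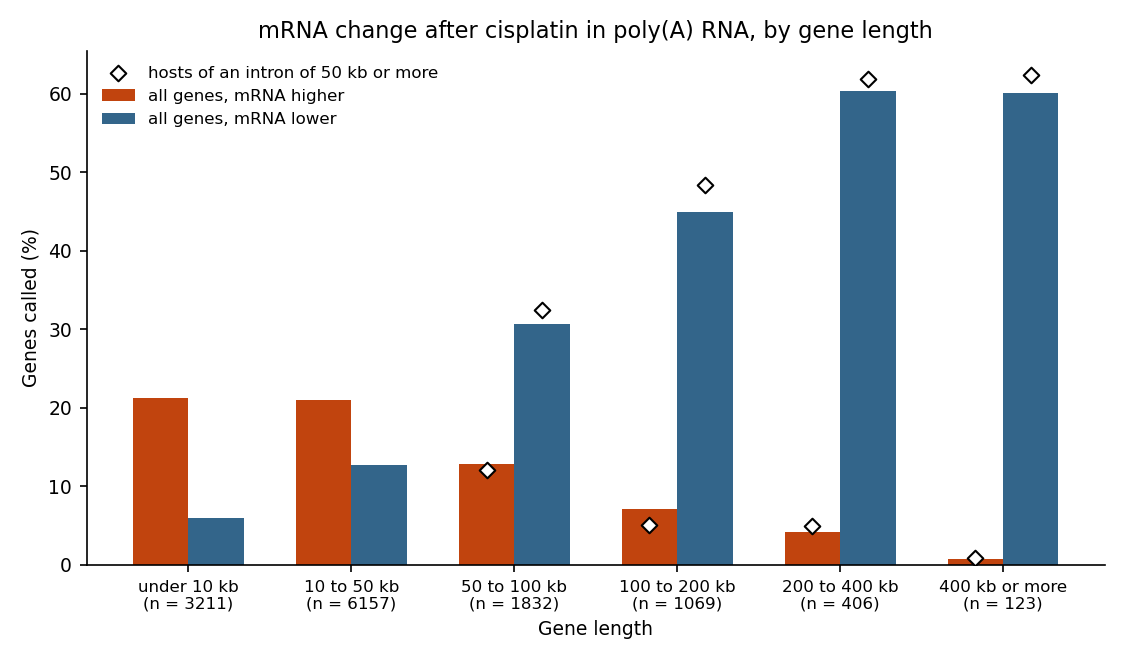
Percentage of protein-coding genes whose mRNA was called higher or lower after cisplatin in poly(A) RNA, by gene length. Bars are all genes of a length class and diamonds the hosts of an intron of 50 kb or more; the bars for lower mRNAs climb from 5.98% under 10 kb to 60.2% at 400 kb or more.

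The change of each intron was set beside that of its host mRNA. For 558 introns tested in total RNA, of 463 hosts with a tested mRNA in poly(A) RNA, the median change was -0.10 for the intron and -0.49 for the mRNA, the signs were the same in 368, and the Pearson r was 0.45. The 2 values come from different libraries, which share sample codes, and an mRNA counts for each of its introns. The host mRNA was lower for 401 of these introns, which had a median of -0.22 beside -0.66 for the mRNA, and higher for 24, with medians of 0.73 and 0.85. Of 4 called-higher introns with a tested host mRNA, those of Cyyr1, Ano3 and Nr3c1 had a higher mRNA, while that of Tox3 had an mRNA at 0.06. In poly(A) RNA, the mRNA was lower in 28 of 40 introns that fell, and higher in 7 and lower in 4 of 15 that rose, beside 264 lower and 20 higher over all 428 introns with a tested host mRNA.

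**Figure D5:**
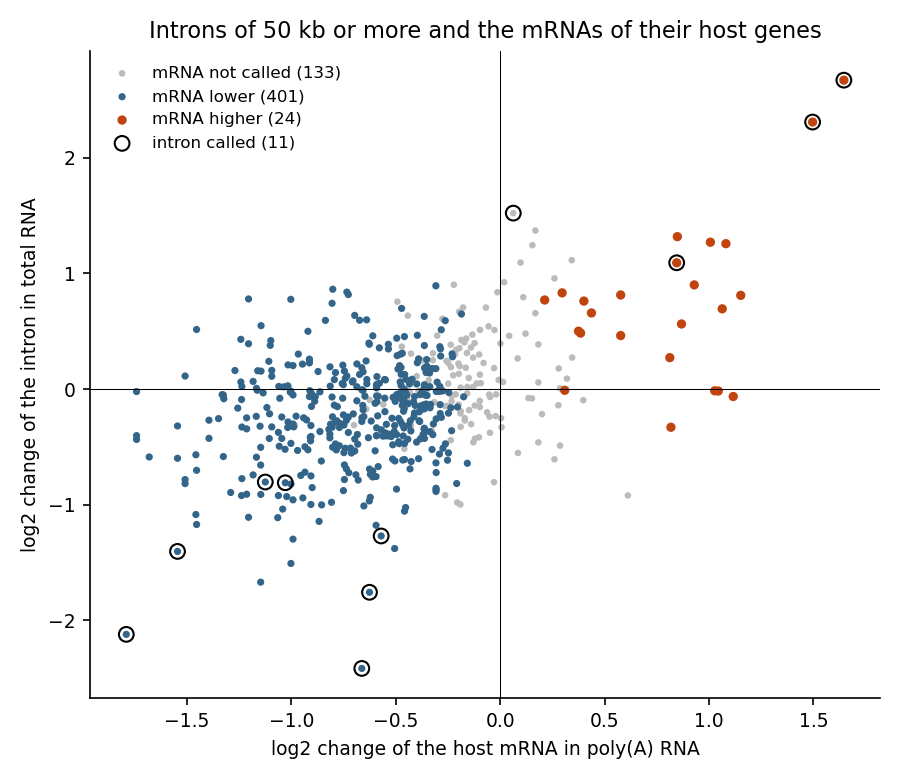
Log2 change of 558 introns of 50 kb or more in total RNA (vertical) against that of their host mRNA in poly(A) RNA (horizontal), coloured by the call of the mRNA; rings mark the 11 introns called in total RNA. All 7 introns that fell lie at a lower mRNA, as do 401 of all 558 introns, and most points lie left of 0.

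Host genes were also grouped by function. All 11 hosts on a list of chromatin factors fell at the mRNA level in poly(A) RNA, with a median log2 change of -0.98. They include Mll3, a histone H3 methyltransferase gene, at 36.5, 34.2 and 29.4 CPM with cisplatin and 72.0, 71.9 and 65.4 CPM in control (log2 change -1.06, edgeR adjusted p = 1.2e-10), and Hdac4, a deacetylase gene, at 11.8, 13.4 and 10.1 against 22.6, 23.5 and 21.4 CPM (-0.92). Neither gene's groups overlapped. Of 12 introns on this list tested in total RNA, that of Phf21a fell and 0 rose, with a median of -0.35. Over all 651 introns of 50 kb or more tested there, 1.08% rose and 1.08% fell. Over all features tested in total RNA it was 0.809% and 0.712%. The intron counts of every list are to be read beside these shares.

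Of 38 hosts on a list of transcription factors, 30 fell and 2 rose, with a median of -0.79, and of 31 of their introns tested in total RNA 3 fell (Klf12, Bnc2 and Trps1) and 0 rose. Gli2, an effector of Hedgehog signalling, stood at 31.7, 32.3 and 25.8 CPM with cisplatin and 81.2, 81.2 and 85.7 CPM in control poly(A) RNA (log2 change -1.46, edgeR adjusted p = 7.4e-13). Its intron 2 in total RNA held 0.422, 0.353 and 0.477 CPM with cisplatin and 1.19, 0.785 and 0.738 CPM in control, without overlap, at a log2 change of -1.09 that missed the threshold (edgeR adjusted p = 0.065).

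On a list of adhesion, receptor and guidance genes, 16 of 26 host mRNAs fell and 1 rose (median -0.70). Of 33 introns on this list tested in total RNA 2 rose, those of Cntn5 and Ptprt, and 0 fell. The Cntn5 intron holds the glutamine tRNA stretch, so its increase may not be that of intron RNA, which was not tested. Ptprk, a receptor tyrosine phosphatase gene, stood at 29.2, 29.5 and 26.8 against 54.3, 59.2 and 57.9 CPM. On a list of kinases, phosphatases and small GTPase regulators, 32 of 50 mRNAs fell and 1 rose (median -0.59), among them Camk1d, a calmodulin-dependent kinase gene, at 9.94, 10.2 and 8.81 against 30.4, 27.1 and 25.7 CPM (log2 change -1.51, edgeR adjusted p = 3.9e-11). In both mRNAs every cisplatin value lay below every control value.

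Cytoskeleton hosts gave 16 lower and 1 higher of 24 (median -0.50), with the polarity gene Pard3 at 17.9, 19.1 and 16.5 against 42.6, 44.9 and 39.3 CPM (log2 change -1.24). RNA-binding protein hosts gave 7 lower and 1 higher of 13 (median -0.28), with the Musashi gene Msi2 at 33.2, 33.1 and 30.4 against 80.0, 78.7 and 70.5 CPM (-1.24), while Mbnl1, a splicing regulator, changed by -0.12 (edgeR adjusted p = 0.56). Hosts at common fragile sites, which are long genes prone to breakage under replication stress, gave 7 lower and 0 higher of 12 (median -0.53). The list of p53 targets had 2 hosts, Ptpn14 and Pvt1. Ptpn14, a tyrosine phosphatase gene, rose from 58.7, 58.8 and 35.7 CPM in control to 79.6, 106 and 106 CPM (log2 change 0.93, edgeR adjusted p = 2.3e-06), and Pvt1 changed by -0.26 (edgeR adjusted p = 0.26). Every list is a subset of the hosts, of which 53.3% fell, and the shares above are to be read beside that. The 7 of 13 and 7 of 12 are near it. Among hosts of 200 to 400 kb 61.9% fell, and among hosts of 2 introns of 50 kb or more 64.8%. The lists were not compared with hosts of like length.

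Many of the densest regions held a smaller gene. Of the 100 densest in total RNA, 47 held a small RNA gene and 31 a pseudogene, and in poly(A) RNA 31 and 59, against 25.8% and 22.5% of all regions. In total RNA the densest was the region beside Zmynd11 that holds mir-2134-4 (chr13:9764561-9875858), at 258 CPM per kb in control and 126 CPM per kb with cisplatin, with a log2 change of -1.03 that missed the threshold (edgeR adjusted p = 0.65). Its groups overlapped, at 45817, 20803 and 19383 CPM in control 8.4.16, 8.5.16 and 8.6.16 and at 10717, 11096 and 20291 CPM in cisplatin 8.3.3, 8.4.3 and 8.5.3. Next came 3 regions of chromosome 9 with SNORD50 copies, genes of a small nucleolar RNA, at 156, 51.2 and 47.1 CPM per kb in control, and a region of chromosome 17 with AY036118 (chr17:39981191-40343962) at 79.4 CPM per kb. The regions starting at 88483658 and 88743029 on chromosome 9 had nearly equal control values, 4237, 6060 and 5031 CPM against 4251, 6082 and 5038 CPM, in 8.4.16, 8.5.16 and 8.6.16. Each of the 2 holds 1 annotated SNORD50 copy, so their counts are uncertain as those of single regions.

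The densest region in poly(A) RNA (chr1:24594277-24685382) held 6426, 6333 and 6575 CPM with cisplatin and 5974, 6000 and 5737 CPM in control, without overlap, a log2 change of 0.13 (edgeR adjusted p = 0.011). It contains a 4654-base stretch, chr1:24618374-24623027 on the minus strand, that is 99.936% identical to positions 6390 to 11042 of the mitochondrial DNA, with 2 mismatches. A window around 1 mismatch shows how alike the nuclear copy and the mitochondrial sequence are, with the differing base in capitals.
nuclear copy, chr1:24619936-24619976, minus strand: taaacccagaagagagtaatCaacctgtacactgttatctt
mitochondrial DNA, positions 9441 to 9481: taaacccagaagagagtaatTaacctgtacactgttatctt
A read between such mismatches matches both places, and the labels do not state how such reads were assigned. The next densest were Ssh2 intron 1, at 14.9 CPM per kb in control and 13.6 with cisplatin, and a region of chromosome 3 with the pseudogene Gm5844, at 11.0 and 10.2 CPM per kb. The log2 change of the Ssh2 intron was -0.13 (edgeR adjusted p = 0.019), while the Ssh2 mRNA changed by 0.26 (edgeR adjusted p = 0.097).

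The longest regions were among the emptiest per kb. The 13504 kb region of chromosome Y (chrY:2398857-15902555) held 3.18 to 3.89 CPM with cisplatin and 3.92 to 4.87 CPM in control poly(A) RNA, and 4 to 12 reads a library in total RNA, where it did not pass the filter. The region of chromosome 7 that spans 7199 kb (chr7:39313213-46511993) held 2.31 to 2.85 CPM with cisplatin and 2.39 to 3.77 CPM in control poly(A) RNA, with overlapping groups. The gap from Odz3 to Aga (chr8:49760045-54597079), with several small RNA genes inside, held 196, 193 and 179 CPM with cisplatin and 247, 224 and 264 CPM in control poly(A) RNA, without overlap (log2 change -0.37, edgeR adjusted p = 2.4e-05).

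At the 50 kb limit, the 3 regions just inside were of 50008, 50014 and 50050 bases, and the 3 just outside of 49979, 49984 and 49994 bases. The region just inside between Ttc9 and Map3k9 stood at 0.0503 CPM per kb in control poly(A) RNA, and the 3 just outside at 0.0305, 0.107 and 0.00555 CPM per kb. None of these 6 was called in either assay.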

How the data were processed

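Total RNA and poly(A) libraries of ES cells, under the same 6 sample codes, were used, with groups and codes taken from the labels. The long RNA tables deposited by the authors hold raw read counts per RefSeq transcript or genomic region. Build mm9 and the tools Bowtie, TopHat and edgeR are named in the submitters' processing notes. How reads were counted, whether strand was used and what was done with reads of several matches is not stated there. The deposited abundance tables were fitted, and the expression tables served as an alternative. The small RNA table of the total RNA libraries also holds counts, deposited by the authors, and its totals were 1587446 to 4515956.

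Regions were classed against GENCODE vM1 on NCBIM37, the assembly of mm9. An intron is a region whose ends match an annotated intron, with the lowest number that any matching transcript of the host gives it. Of 1150 host genes, 1146 were matched to a RefSeq symbol, 88 of them through an older symbol, with a RefSeq gene table used for names. Counts were filtered with filterByExpr, scaled by TMM and tested with edgeR 4.0.16 (quasi-likelihood, two-sided, R 4.3.3, limma 3.58.1) over the whole table, with Benjamini-Hochberg adjustment and a threshold of 0.05; DESeq2 1.42.0 was an alternative. Shares were compared by exact permutation tests (SciPy 1.17.1). Mitochondrial copies were found with BLAST+ 2.17.0 (at least 200 bases and 95% identity) and tRNA copies by exact matches of fragments of at least 28 bases. The scripts were tested on simulated data with 200 changed features. With 3 libraries a group and few reads on most regions, small changes in total RNA were not detectable.

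Regions named in the text were, in each assay, the called regions with the 10 largest changes in each direction, given groups that did not overlap and a log2 CPM of 0 or more, the 5 densest and 5 longest regions, up to 4 introns of each host list and the 5 smallest p of the interaction; the text says where a region was picked for its values. One region that the rule chose is not reported here. The members and the lists were chosen with earlier results of these data known. Alternatives were other scalings, DESeq2, no filter, leaving out each library, a replicate block, regions of 100 kb or more, and, chosen after seeing the data, regions with no nested gene or no tRNA copy.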

Additional observations from a re-analysis of the deposited data

Results flagged for a closer look

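The cisplatin effect on the gap beside Pabpc4l (chr3:45238502-46246118) differed between total and poly(A) RNA by the interaction test of edgeR at an adjusted p under 0.05. The difference of log2 changes, total minus poly(A), was 2.42 (edgeR adjusted p = 0.0013). The gap holds the glutamine tRNA stretch and rose in total RNA with a log2 change of 2.24, while its change in poly(A) RNA was -0.14.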

How the results depend on the processing

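Counts on these regions are small in total RNA, and its calls moved with most settings. For regions higher in total RNA (19 as reported), the alternatives gave 10 at 100 kb or more, 10 with no nested gene, 10 with no tRNA copy, 12 with DESeq2, 9 with library totals and no TMM, 33 with no filter and 7 to 20 with 1 library left out. For regions lower (13), they gave 5, 8, 13, 5, 2 and 17, and 2 to 12 with 1 library left out. Of these, the reported calls made up 12 of 12 higher and 5 of 5 lower with DESeq2, 9 of 9 and 0 of 2 with no TMM, and 19 of 33 and 8 of 17 with no filter. The count of higher regions was 7 without control 8.6.16, 10 without cisplatin 8.5.3 and 11 without cisplatin 8.4.3; that of lower regions was 2 without cisplatin 8.4.3, 4 without 8.3.3, 7 without 8.5.3, 6 without control 8.5.16 and 8 without control 8.6.16. In poly(A) RNA, regions higher (211) numbered 103 at 100 kb or more, 94 with no nested gene, 112 with DESeq2, 393 with no TMM and 152 to 213 with 1 library left out. Regions lower (385) numbered 247, 111, 265 and 206 under the same settings and 264 to 381 with 1 library left out. The settings of 100 kb or more, no nested gene and no tRNA copy leave out regions that the reported counts include. Regions with a tRNA copy were 57 of the 2983 tested in total RNA but 9 of the 19 called higher. For the other settings the cause was not tested.

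For the interaction, the 1 region with a higher effect in total RNA became 0 with no nested gene, 0 with no tRNA copy, 2 with DESeq2, 5 with no TMM, 3 without total RNA cisplatin 8.3.3 and 1 to 4 with 1 library left out. The 1 with a lower effect became 0 at 100 kb or more, 0 with no nested gene, 0 with TMM on RefSeq transcripts, 0 with the expression tables and 0 to 2 with 1 library left out. Host mRNAs higher in total RNA (2) numbered 0 with DESeq2, 0 with TMM on RefSeq transcripts, 1 with the expression table, 0 with no TMM, 0 with the replicate block and 0 to 2 with 1 library left out. Host mRNAs lower in total RNA (16) numbered 8 with DESeq2, 0 with no TMM, 3 without total RNA cisplatin 8.3.3 and 2 to 16 with 1 library left out. In poly(A) RNA the host counts stayed within 1.5 times under every alternative run, at 34 to 46 higher and 387 to 468 lower with 1 library left out. The difference in the share of counts in poly(A) RNA, -0.893 percentage points, was 0.139 over all rows of the table and -1.03 to -0.717 with 1 library left out, and in total RNA it was -4.86 to -0.235.

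The replicate block by the middle number of the code gave 15 higher and 9 lower regions in total RNA, of which 14 and 3 were among those reported, and 265 higher and 447 lower in poly(A) RNA, with host mRNAs at 13 lower in total RNA and 57 higher and 473 lower in poly(A) RNA. Same-numbered samples of the 2 treatments had correlated deviations of -0.08 and 0.106 in total RNA, where other pairs ran from -0.203 to 0.136. In poly(A) RNA they had 0.068 and 0.07, and the other pairs lay below 0 except 8.3.3 with 8.6.16, at 0.091. The labels do not say that the numbers pair samples, so they were not taken as pairs in the main fit. With the code as a block across assays, the interaction gave 6 higher and 2 lower regions; libraries of 1 code had correlated deviations of 0.021 to 0.074, and each was highest with its own code.

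Of 23 named regions called in total RNA, 5 were called under every alternative fit of the counts, and of 30 in poly(A) RNA, 20 were. The sign changed in 0. Settings that only leave regions out are not among these fits. In total RNA, the Cntn5 intron, the regions touching Lpcat4 and Rab11a, and the gaps beside Pabpc4l and from Sec23ip to Ppapdc1a kept the call throughout. All 5 hold a tRNA fragment copy, so the setting with no tRNA copy leaves them out. No named region without such a copy kept its call in total RNA under every fit. The region from Rybp to Shq1 lost it with DESeq2 and without cisplatin 8.5.3 or control 8.4.16, that with Hist1h2al with no TMM, with the block and without cisplatin 8.4.3, the Cyyr1 intron without control 8.6.16, the Exoc4 intron with no TMM and without cisplatin 8.3.3, 8.4.3 or control 8.5.16, and the Tox3 and Klf12 introns and the gap from Trps1 to Eif3h with no TMM. The Trps1, Ctbp2, Nr3c1, Ptprt, Bnc2 and Phf21a introns, the regions inside Cacnb4 and Immp2l and between Rgs13 and Rgs1 and the gaps beside Pmp2 and from Zfp202 to Scn3b lost it in several alternatives each, single libraries left out among them.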
